A study of Caenorhabditis elegans with 2 samples.

Results

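The tRNA genes of chromosome X of Caenorhabditis elegans were examined for binding of MXL-1, a transcription factor of the worm's Max network, with a helix-loop-helix and a leucine zipper. The loci were all genes of biotype tRNA on X in the Ensembl annotation of WBcel235, each taken as the gene body plus 250 bp on either side. There were 276 such genes, 45.1% of the 612 nuclear tRNA genes, and the other 336 lie on the autosomes. Choosing them used the annotation only and no measured value.

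Binding was measured by ChIP-seq in 2 biological replicates, which form 1 group, so no conditions could be compared. Both replicates were whole hermaphrodite young adults of strain OP537, collected 67 hours after the worms had been synchronised by starving L1 larvae. The strain carries unc-119(tm4063) on III and the transgene wgIs537, from which MXL-1 is made with a GFP and FLAG tag at its C-terminal end. Chromatin was precipitated with an antibody against GFP, so the values concern the tagged protein of 1 transgenic line, and a whole worm mixes all its tissues. No untagged or input sample was used here, so a peak is an entry of the authors' lists and its level in a control is not known here.

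A tRNA gene is transcribed by RNA polymerase III from a promoter that lies inside the gene. The factor TFIIIC recognises a pair of internal elements, box A near the start and box B in the arm of the T loop, and brings TFIIIB to the DNA just upstream of the start. A run of T after the gene ends transcription. Max-family dimers, in contrast, are known for binding the E-box CACGTG at promoters of RNA polymerase II. Worm tRNA genes are dispersed over all chromosomes, many are identical copies, and X holds more of them than any other chromosome.

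The sequences of 5 of the genes described below are shown first, so that a body can be set beside its values. They are RefSeq sequence of WBcel235, the assembly that ce11 names, read 5′ to 3′ on the gene's strand. Capitals mark the box B core GTTCGA. C04A11.t1 (tRNA-Leu, anticodon CAA, chrX:13665555-13665673, plus strand) had the strongest peak, and its body includes a tRNA intron. C18A11.t2 (tRNA-Arg ACG, chrX:8036685-8036757, minus strand) stands for 10 genes of identical body, all on X. C04E7.t1 (tRNA-Leu AAG, chrX:353255-353336, minus strand) stands for 9 genes of identical body, all on X. F28H6.t3 (tRNA-His GTG, chrX:14135874-14135945, plus strand) belongs to a tandem array. Y75D11A.t2 (tRNA-Arg CCT, chrX:1764254-1764327, minus strand) has a body found once in the genome, and no list had a summit there.
C04A11.t1: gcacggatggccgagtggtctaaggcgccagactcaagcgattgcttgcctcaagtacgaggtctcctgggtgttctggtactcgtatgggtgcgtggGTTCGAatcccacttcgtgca
C18A11.t2: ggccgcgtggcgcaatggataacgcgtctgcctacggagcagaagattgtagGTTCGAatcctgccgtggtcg
C04E7.t1: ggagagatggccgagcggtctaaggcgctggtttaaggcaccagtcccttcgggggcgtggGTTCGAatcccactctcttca
F28H6.t3: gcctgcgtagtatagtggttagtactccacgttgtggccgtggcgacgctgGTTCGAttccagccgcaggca
Y75D11A.t2: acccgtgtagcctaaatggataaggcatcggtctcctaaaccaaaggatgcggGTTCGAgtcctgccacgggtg

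Most X tRNA genes had an MXL-1 peak in the authors' list of reproducible peaks. A gene is called bound where a summit of that thresholded list of 557 peaks fell in its window. Of the 276 genes, 157 were bound (56.9%, exact 95% interval 50.8 to 62.8) and 119 were not. Over all 612 nuclear tRNA genes the share was 49.5%, and on the autosomes it was 43.5% (146 of 336). Windows of 572 bp tiled over X held a thresholded summit in 0.529% of 30977 cases, and 1.06% of 19973 protein-coding genes had one in a promoter window. The X tRNA genes took 137 of the 166 thresholded peaks on X, and 29 lay elsewhere on the chromosome.

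Each replicate was also read alone through the 557 strongest peaks of its own list. By that measure 127 X genes were bound in replicate 1 (46.0%) and 141 in replicate 2 (51.1%), or 48.6% ± 3.59 (SD, n = 2). The background over all nuclear tRNA genes was 40.7% in replicate 1 and 43.1% in replicate 2. The autosomes stood at 36.3% and 36.6%. The X share exceeded the autosomal share by 13.4 percentage points in the thresholded list (95% interval 5.47 to 21.2), by 9.70 points in replicate 1 (1.88 to 17.4) and by 14.5 points in replicate 2 (6.59 to 22.2). The mean over the replicates was 12.1 points (SD 3.38, n = 2). Both replicates count the same genes, so this SD does not cover variation among genes. With summits inside the gene body only the difference was 4.41 points, and with all pooled entries 4.98, and both intervals include 0. These intervals treat genes as independent and cover the counting of genes only. Neighbouring genes can share a peak, and no test was made over genes.

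The bound share on X, 56.9%, was above that of each autosome in the thresholded list. Chromosome III followed with 32 of 64 genes, IV with 34 of 71 (47.9%), II with 27 of 57 (47.4%), I with 25 of 66 (37.9%) and V with 28 of 78 (35.9%). In replicate 1 alone, X at 46.0% was followed by III at 43.8% and IV at 43.7%. Their exact intervals overlap that of X, so the order among X, II, III and IV is not resolved by these counts.

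Most X loci left some trace in the deposited lists. Of the 276 genes, 251 had a summit in the window in at least 1 of the thresholded, pooled and replicate lists, and 25 had none. All 4 lists had one at 155 of the 157 bound genes. F22F1.t8 (tRNA-Ser) and C28G1.t3 (tRNA-Gly) lacked one in the window in replicate 1, and both were chosen after their values were seen. The pooled list, which is labelled as peaks and background, reached 238 genes (86.2%), against 83.5% of all nuclear tRNA genes and 8.11% of tiled windows on X. Of the 119 unbound genes, 81 had a pooled entry, 66 had one in the pooled list and both replicates, and 13 had one in a replicate only.

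The height of a peak is given by the authors' signal value, whose scale is not stated, so it is compared only within a list. Bound X genes had pooled signals from 68.1 to 207.7, with a median of 101.8 and quartiles of 82.2 and 119.0. The 146 bound autosomal genes had a median of 91.8 and reached 175.5. The 81 unbound X genes with a pooled entry ranged from 26.1 to 67.4, with a median of 49.1. Bound and unbound genes do not overlap here because the thresholded list keeps the pooled peaks of highest signal, the weakest of which stood at 67.7.

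**Figure D1:**
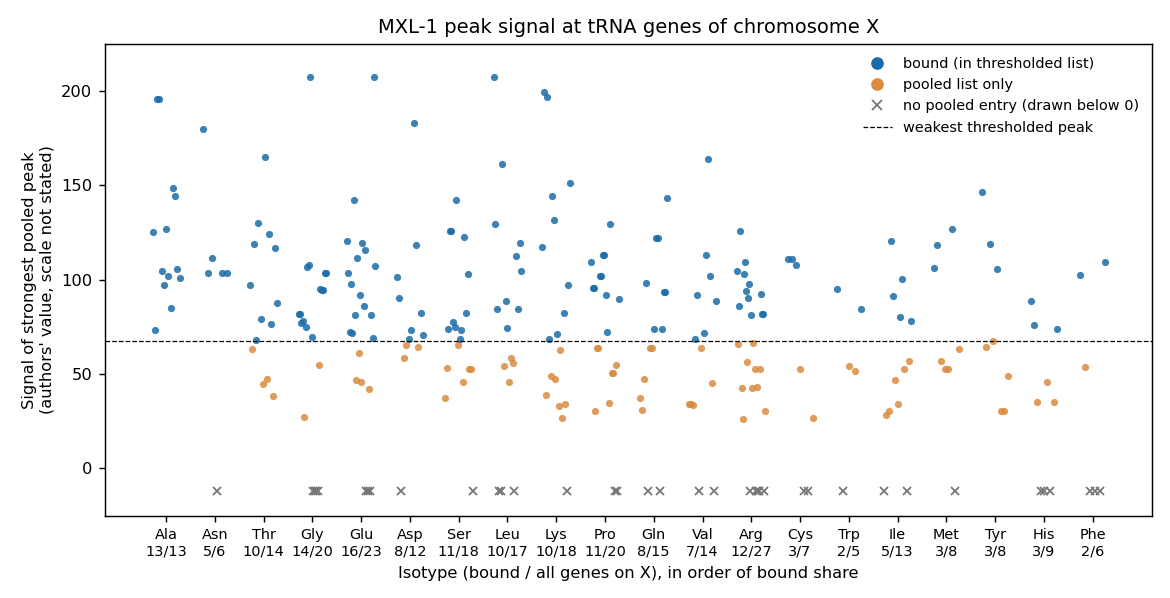
Signal of the strongest pooled peak at each X tRNA gene with a named isotype (vertical axis, authors' value), by isotype (horizontal axis, with bound and total genes). Blue points are bound genes, orange points have a pooled entry only, crosses have no pooled entry, and the dashed line is the weakest thresholded peak (67.7); all 13 Ala genes are blue, and every other isotype also has unbound genes.

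The replicates ranked the loci alike over the full range and less so among bound genes. Over the 223 X genes with an entry in both replicates, Spearman's rho between their signals was 0.686, and over the 155 bound genes among them it was 0.418. Bound genes were chosen by high pooled signal of the same replicates, which narrows their range, so the coefficients cannot be compared as measures of agreement. Genes that share a peak repeat its value, so these coefficients describe the points and carry no p. Among bound genes, replicate 2 divided by replicate 1 had a median of 1.05 (quartiles 0.882 and 1.31, range 0.496 to 2.84). The medians of bound X genes were 48.8 in replicate 1 and 50.8 in replicate 2, against 46.5 and 46.7 for bound autosomal genes. Summits of both replicates lay within 100 bp of the thresholded summit at 147 of 157 bound genes (93.6%), within 50 bp at 114 (72.6%) and within 250 bp at all 157. The thresholded list was itself chosen by reproducibility between these replicates, so these shares are no independent measure of their agreement.

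**Figure D2:**
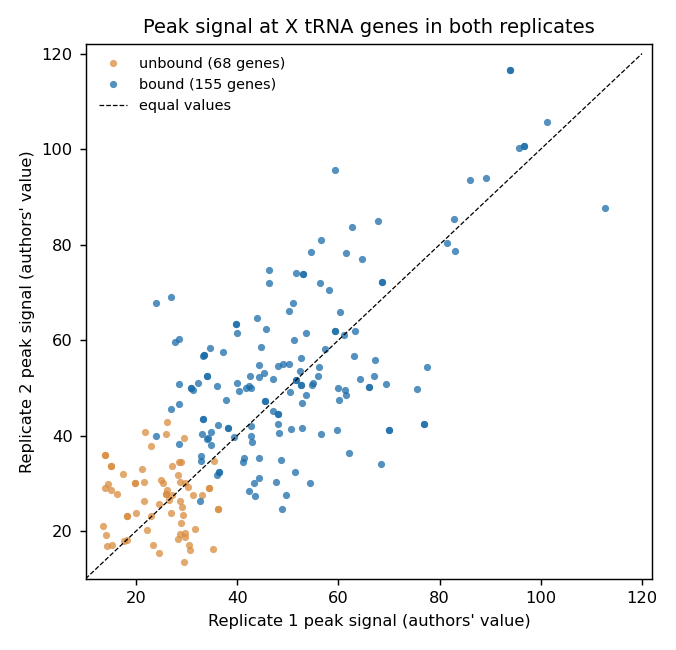
Signal of the strongest peak in the window in replicate 1 (horizontal axis) and replicate 2 (vertical axis), in the authors' units, for the 223 X tRNA genes with an entry in both. Blue points are the 155 bound genes and orange points the unbound ones. Bound genes, which were chosen by high pooled signal, lie higher in both replicates and scatter about the dashed line of equal values.

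The strongest locus was C04A11.t1, the tRNA-Leu (CAA) gene whose sequence opens the list above. Its pooled signal was 207.7, with 101.2 in replicate 1 and 105.8 in replicate 2. M02F4.t2 (tRNA-Glu, CTC) and M02F4.t1 (tRNA-Gly, TCC) are divergent neighbours 116 bp apart that share a single peak of 207.5, with 93.9 and 116.5 in the replicates. The signals of these loci were high in both replicates. The loci were chosen by high pooled signal of the same replicates, so this is no independent measure of agreement.

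A pair of identical tRNA-Lys (TTT) genes came next. C33G3.t2 had 199.7 in the pooled list, 112.6 in replicate 1 and 87.7 in replicate 2. E03E2.t3 had 196.7, 95.6 and 100.2 in the same lists. All 5 X genes with this body were bound, the weakest being F23A7.t1 at 68.5, so identical genes spanned nearly the whole range of bound signals.

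F15G9.t1 (tRNA-Ala, TGC) and F15G9.t2 (tRNA-Ala, AGC) lie 86 bp apart in an intron of him-4, which encodes hemicentin, an extracellular matrix protein. They share a peak of 196.0, with 96.7 in replicate 1 and 100.5 in replicate 2, and its summit lies between the genes. The region is shown because the centres of these genes are nearer to each other than any 2 pooled summits on X. It covers chrX:9743589-9743818, plus strand, with both tRNA genes in capitals and the spacer in lower case.
F15G9.t1 to F15G9.t2: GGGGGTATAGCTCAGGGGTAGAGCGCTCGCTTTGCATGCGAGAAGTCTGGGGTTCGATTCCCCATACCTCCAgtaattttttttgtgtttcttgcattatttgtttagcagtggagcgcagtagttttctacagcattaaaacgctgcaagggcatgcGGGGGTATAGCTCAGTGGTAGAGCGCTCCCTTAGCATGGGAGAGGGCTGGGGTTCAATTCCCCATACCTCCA

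Of the other strong loci, R04D3.t2 alone had a tRNA gene within 1000 bp. F38G1.t2 (tRNA-Asp, GTC), in an intron of the fibroblast growth factor gene egl-17, had a pooled signal of 183.4, with 86.1 and 93.6 in replicates 1 and 2. F41D9.t3 (tRNA-Asn, GTT) had 179.7, 89.1 and 94.0, R01H5.t1 (tRNA-Thr, TGT) had 165.2, 82.8 and 85.4, and R04D3.t2 (tRNA-Val, TAC) had 164.0, 81.4 and 80.4. C40H5.t1 (tRNA-Leu, TAA) closed the list of the 12 strongest genes with 161.5, 83.0 and 78.5. In the whole thresholded list, 137 of the 557 peaks were at X tRNA genes. Among its top 20 peaks 2 were, and among its top 50 peaks 10 were, so X tRNA genes were not concentrated at the top.

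The weakest bound and the strongest unbound genes differed little. F43E12.t1 (tRNA-Thr, AGT) was the weakest bound gene, with 68.1 in the pooled list, 36.03 in replicate 1 and 31.7 in replicate 2. F12D9.t3 (tRNA-Val, AAC) had 68.4, 32.7 and 34.7, and F22F1.t4 (tRNA-Ser) and F22F1.t5 (tRNA-Asp) shared a peak of 68.4. Just below the threshold, R04D3.t4 (tRNA-Tyr, GTA) had 67.4, 28.8 and 34.4. The identical tRNA-Arg (TCT) genes F41D9.t4 and C11G10.t1 had 66.3 and 66.1, and F22F1.t2 (tRNA-Ser) and F22F1.t3 (tRNA-Asp) shared a peak of 65.4. F22F1.t2 and F22F1.t3 were nevertheless bound by the own list of replicate 1, and F41D9.t4 and C11G10.t1 by that of replicate 2.

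Bound genes were found for every isotype on X. The 273 genes with a named isotype covered all 20 amino acids, and the bound share ran from 33.3% for His (3 of 9) and Phe (2 of 6) to 100% for Ala (13 of 13, exact interval 75.3 to 100). Among the larger isotypes it was 69.6% for Glu (16 of 23), 70.0% for Gly (14 of 20), 55.0% for Pro (11 of 20) and 44.4% for Arg (12 of 27). The exact intervals of all isotypes other than Ala include the 49.5% of all nuclear tRNA genes. The Gly count was unstable between replicates, with 6 of 20 genes in replicate 1 and 12 of 20 in replicate 2.

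The 13 tRNA-Ala genes were the isotype bound throughout, and they were picked out after their values were seen. Replicate 1 alone had 12 of 13 and replicate 2 had 13 of 13, whereas 11 of the 21 autosomal Ala genes were bound in the thresholded list. Their pooled signals ran from 73.4 for C56G3.t1 to 196.0 for F15G9.t1 and F15G9.t2. T07H6.t1 and T07H6.t2, both with anticodon TGC, had 148.9 and 144.6. The genes comprise bodies with 8 and 15 copies in the genome as well as 3 found once, namely F18G5.t1 (104.9), F18G5.t2 (97.2) and K02A4.t2 (85.0).

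For 13 of the 20 isotypes the bound share was higher on X than on the autosomes in the thresholded list, for 12 in replicate 1 and for 15 in replicate 2. It was higher in all 3 lists for 9 isotypes. The strongest gene of each remaining isotype not yet named had a pooled signal between 88.7 and 146.5. C02B4.t2 (tRNA-Tyr) led these with 146.5, followed by R04A9.t1 (tRNA-Gln) with 143.5, F02D10.t2 (tRNA-Ser) with 142.1, Y59E1B.t2 (tRNA-Pro) with 129.7, E01H11.t1 (tRNA-Met) with 127.0 and C18A11.t2 (tRNA-Arg) with 126.0. C02B4.t1 (tRNA-Ile) had 120.5, F12D9.t6 (tRNA-Cys) 111.1 in a peak shared with its neighbour F12D9.t1 (tRNA-Cys), T28B4.t1 (tRNA-Phe) 109.5, C03B1.t1 (tRNA-Trp) 95.2 and C06G1.t1 (tRNA-His) 88.7.

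Genes whose body occurs once in the genome were bound less often than multi-copy genes. Of 57 single-copy X genes, 22 were bound (38.6%, exact interval 26.0 to 52.4). The share was 58.5% for bodies with 2 to 9 genes (38 of 65) and 63.0% for those with 10 or more (97 of 154). In replicate 1 the 3 classes had 17, 33 and 77 bound genes, and in replicate 2 they had 18, 36 and 87. More than 1 copy against a single copy made a difference of 23.0 percentage points (95% interval 8.50 to 36.1) in the thresholded list, 20.4 in replicate 1 and 24.6 in replicate 2, or 22.5 ± 2.96 (SD, n = 2).

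The autosomal genes had the same order, with 30.2% bound for single copies, 41.4% for 2 to 9 and 51.5% for 10 or more. X stood higher in each class, and the difference by class was not tested. The windows of single-copy X genes had a median of 93.1% of 36-mers found once in the genome, against 90.1% for multi-copy genes. When families were formed by isotype and anticodon instead of by identical body, the difference between genes of families with 10 or more members and the rest was -6.25 percentage points.

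Divergence from other tRNA genes went the same way. Each mature sequence was compared with every other nuclear tRNA gene, and the edit distance to the nearest was taken. Of 223 X genes with an exact match elsewhere, 139 were bound (62.3%). Among 38 genes 1 to 3 edits from their nearest relative the share was 36.8%, and among 15 genes at 4 or more it was 26.7% (4 of 15, exact interval 7.79 to 55.1). Y75D11A.t2, shown above, was 12 edits from its nearest relative. C04A11.t1 counts as a single copy because of its intron, but its mature sequence is that of another gene.

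Identical genes nevertheless differed from each other. On X, 33 groups of at least 2 identical bodies held 203 genes, and 24 of these groups held both bound and unbound members. In 7 groups all members were bound and in 2 none was. Of the 20 groups with at least 5 members, 17 were mixed.

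**Figure D3:**
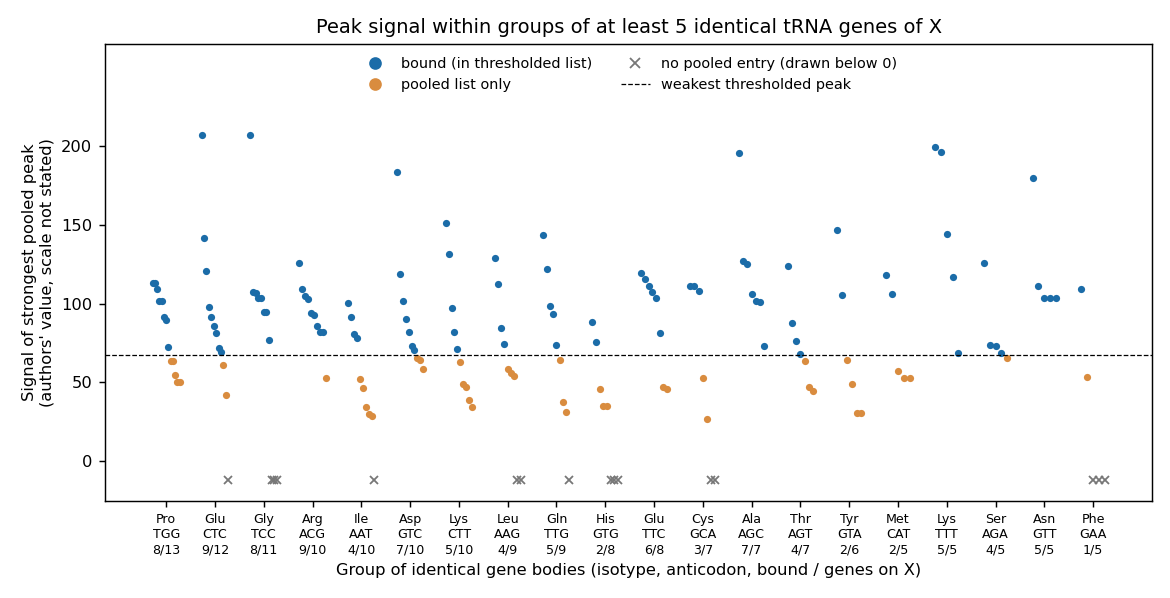
Pooled signal (vertical axis, authors' value) of each gene in the 20 groups of at least 5 identical X tRNA gene bodies (horizontal axis: isotype, anticodon, bound and total genes). Blue points are bound, orange points have a pooled entry only and crosses have none; within most groups the points span both sides of the dashed threshold at 67.7.

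The largest group was tRNA-Pro (TGG), with 13 genes of which 8 were bound and pooled signals from 50.4 to 113.2. In tRNA-Glu (CTC), 9 of 12 were bound, and signals ran from 42.2 to 207.5 at M02F4.t2, with F52E10.t4 lacking an entry in any list. In tRNA-Gly (TCC), 8 of 11 were bound, from 76.9 to 207.5 at M02F4.t1, and the 3 unbound genes had no pooled entry. R04E5.t4 and R04E5.t2 of that group had no entry in any list. The 207.5 of both groups is the single peak shared by M02F4.t2 and M02F4.t1. Its summit lay in the spacer, so it cannot be assigned to either body. Among genes with an unshared peak, the highest signals were 120.7 (C04C11.t1, Glu) and 107.8 (K09C8.t1, Gly). The windows of F52E10.t4 and R04E5.t4 held 61.3% and 63.3% unique sequence, and that of R04E5.t2 held 86.8%. The part of unique sequence in the missing entries was not tested. Within these limits, identical bodies ranged from genes with a peak of their own to genes with no entry.

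Of the groups of at least 2 identical bodies, 6 have all their copies on X. The groups tRNA-Arg (ACG) and tRNA-Leu (AAG) are the largest of these, and they were chosen for description after their values were seen. In the others, the bound genes were 2 of 6 for tRNA-Tyr (GTA), 2 of 4 for tRNA-Val (AAC), 0 of 3 for tRNA-Arg (TCG) and 0 of 2 for tRNA-Arg (TCT). In the Arg (ACG) group, whose body is that of C18A11.t2 above, 9 of 10 genes were bound. Replicate 1 alone had 6 of 10 and replicate 2 had 8 of 10. The bound genes T06H11.t2 and T06H11.t3 share a single peak of 82.1. C18A11.t2 had a pooled signal of 126.0, with 67.2 and 55.8 in the replicates. F12D9.t4 had 94.2, with 28.5 in replicate 1 and 60.3 in replicate 2, so its height rested mainly on replicate 2. K01A12.t3 was the unbound member, with 52.7, 27.1 and 27.5.

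In the Leu group 4 of 9 genes were bound. C04E7.t1 had 129.4 in the pooled list, 58.1 in replicate 1 and 70.4 in replicate 2, and F14B8.t1 had 112.7, 52.6 and 56.1. F08F1.t1, F08F1.t2 and C48C5.t4 were unbound, with pooled signals of 58.4, 55.7 and 54.4. C05C9.t1 (84.7) and C05C9.t2 (no entry in any list) lie 357 bp apart in the same host gene. C05E7.t3 had no pooled entry and a replicate 1 entry of 28.1. The members of this group also share the body's box A and box B, so they differ in the flanking DNA.

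The 60 bases upstream of the strongest Leu member and of C05E7.t3 are shown because that is where such identical genes can differ. They were the same at 21 of 60 positions when laid side by side without gaps. No count for unrelated sequence was made, so this value does not tell whether the flanks are related. The first is chrX:353337-353396 on the minus strand and the second chrX:12942398-12942457 on the plus strand, both RefSeq WBcel235, with no letters in capitals.
C04E7.t1 upstream: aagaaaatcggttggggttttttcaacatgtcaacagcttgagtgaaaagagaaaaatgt
C05E7.t3 upstream: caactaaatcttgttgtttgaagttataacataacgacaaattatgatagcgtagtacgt

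Crowded tRNA genes on X were bound less often than isolated ones. A neighbouring tRNA gene lay within 1000 bp of 135 X genes, and 62 of them were bound (45.9%). Of the 141 genes without such a neighbour, 95 were bound (67.4%). The difference was -21.4 percentage points (95% interval -32.3 to -9.77) in the thresholded list, -17.6 in replicate 1 and -13.0 in replicate 2. Its mean over the replicates was -15.3 points (SD 3.23, n = 2), and this SD likewise does not cover variation among genes. With genes under 500 bp apart taken as 1 locus, the difference was -13.1 points, with an interval that includes 0 (-26.7 to 0.69).

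The autosomes had the opposite order, within the counting interval. There 49 of 101 genes with a neighbour (48.5%) and 97 of the others (41.3%) were bound, a difference of 7.24 points (95% interval -4.22 to 18.6), and the replicates gave 7.54 and 8.53. The excess of X over the autosomes was seen among isolated genes. Without a neighbour, X exceeded the autosomes by 26.1 points (95% interval 15.8 to 35.5), and by 20.6 and 23.4 in the replicates. With a neighbour, the difference was -2.59 points (-15.2 to 10.1), -4.55 in replicate 1 and 1.87 in replicate 2. Whether the spacing difference itself differs between X and the autosomes was not tested.

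**Figure D4:**
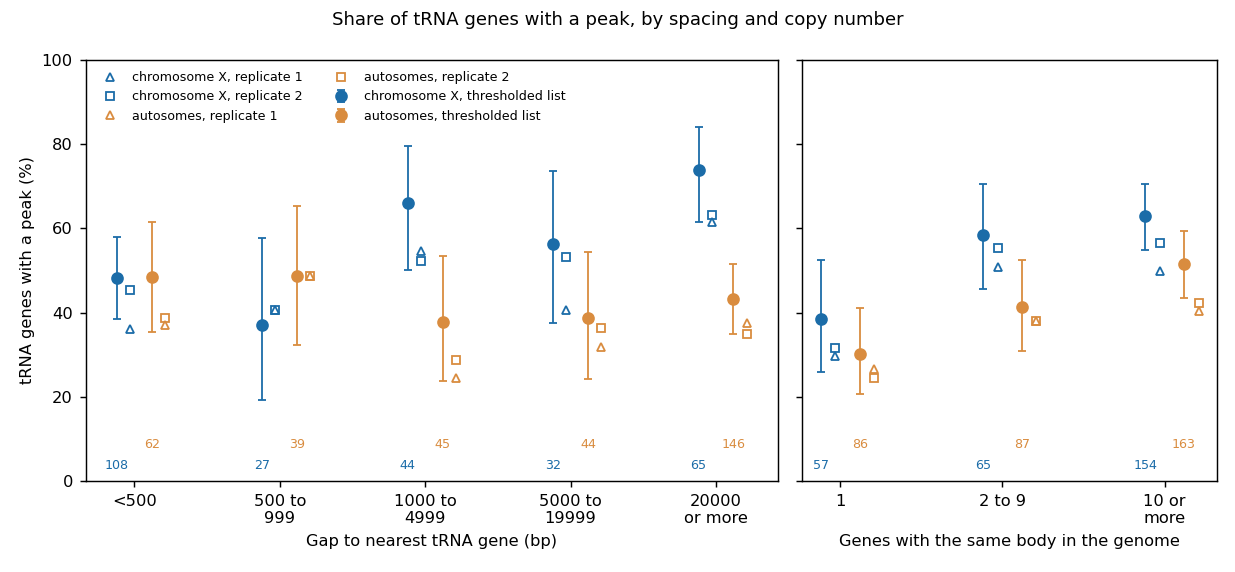
Percent of tRNA genes with a peak (vertical axis) by gap to the nearest tRNA gene (left) and by number of identical bodies (right), for X (blue) and the autosomes (orange), with the number of genes at the foot. Filled circles with exact 95% intervals are the thresholded list, open triangles and squares the own lists of replicates 1 and 2; X lies above the autosomes at gaps of 1000 bp or more and near or below them at shorter gaps.

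By finer classes of gap, 52 of 108 X genes nearer than 500 bp to another tRNA gene were bound (48.1%) and 10 of 27 from 500 to under 1000 bp (37.0%). From 1000 to under 5000 bp the share was 65.9% (29 of 44), from 5000 to under 20000 bp it was 56.2% (18 of 32), and at 20000 bp or more it was 73.8% (48 of 65). The shares did not rise steadily with the gap. The exact intervals of both classes under 1000 bp (38.4 to 58.0 and 19.4 to 57.6) lie below that of the widest class (61.5 to 84.0), and those of the other pairs of classes overlap. Among multi-copy genes, 84 of 113 isolated ones were bound (74.3%) and 51 of 106 with a neighbour (48.1%). Among single-copy genes, 11 of 28 isolated ones (39.3%) and 11 of 29 with a neighbour (37.9%) were bound.

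Sequence that occurs more than once moves with crowding, and its part in the difference was not tested. The median share of unique 36-mers in the window was 87.4% for genes with a neighbour and 90.7% for those without. Windows under 80% unique numbered 38, and 15 of them held a bound gene (39.5%). Among the 238 windows at or above 80%, the shares were 47.6% with a neighbour (49 of 103) and 68.9% without (93 of 135), a difference of -21.3 points. In the lists themselves no 2 pooled summits on X were closer than 199 bp, and 16 X genes had another gene's centre nearer than that.

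Runs of tRNA genes less than 500 bp apart formed 43 clusters with 108 genes. Of the 30 pairs, 16 had both genes bound, 5 had 1 and 9 had none, so 37 of 60 paired genes were bound (61.7%), close to the 62.5% of the 168 lone genes (105). In the 13 clusters of 3 to 6 genes, 15 of 48 genes were bound (31.2%), and 7 of these clusters held any bound gene.

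Some of the largest clusters are named here, chosen after their values were seen. The F28H6 array of 6 identical tRNA-His genes, whose body is that of F28H6.t3 above, had no bound gene. Its strongest pooled signal was 45.8 at F28H6.t5, and F28H6.t3, F28H6.t6 and F28H6.t4 had no entry in any list. The windows of F28H6.t3, F28H6.t6 and F28H6.t4 held 5.21%, 5.21% and 5.59% unique 36-mers. Over the whole array the unique share ran from 5.21% to 80.1%, and its part in the missing entries was not tested. In an intron of K01A12.3, 5 tRNA-Arg and tRNA-Cys genes were all unbound, at 75.05% to 84.9% unique 36-mers. The 5 tRNA-Gln genes H08J11.t1 to H08J11.t5 in an intron of ajm-1, which encodes a junction protein of epithelia, included 4 bound genes, which rest on 2 peaks shared by 2 genes each, with windows of 78.6% to 86.6% unique sequence. Of the 4 identical tRNA-Tyr genes of cosmid R11, R11.t1 was bound at 105.6, with 68.5 in replicate 1 and 34.0 in replicate 2, and the other 3 stood at 30.3 to 49.1.

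Most thresholded peaks marked a single tRNA gene. Of the 137 peaks at X tRNA genes, 117 marked 1 gene and 20 marked 2, and none marked more. The 20 shared peaks covered 12 divergent, 4 convergent and 4 same-strand pairs, and in 13 of them the summit lay in the spacer. Besides the M02F4 and F15G9 pairs, the strongest shared peak was that of F02D10.t1 (tRNA-Glu) and F02D10.t2 (tRNA-Ser), a convergent pair 124 bp apart with a signal of 142.1. When each peak was given to its nearest tRNA gene only, an alternative added after the data were seen, the bound share fell to 49.6%.

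Summits of peaks that marked 1 gene sat on the gene. Measured from the gene's first base in the direction of transcription, the 117 summits had a median position of 31 bp, with quartiles of 8 and 64 and a range of -57 to 181. They lay within the body at 75 genes (64.1%), upstream at 22 (18.8%) and downstream at 20 (17.1%). The median was 26 bp in replicate 1 and 17 bp in replicate 2. The box B core, where present, began at a median position of 53 of the gene, so the middle of the distribution lay between the start and box B.

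**Figure D5:**
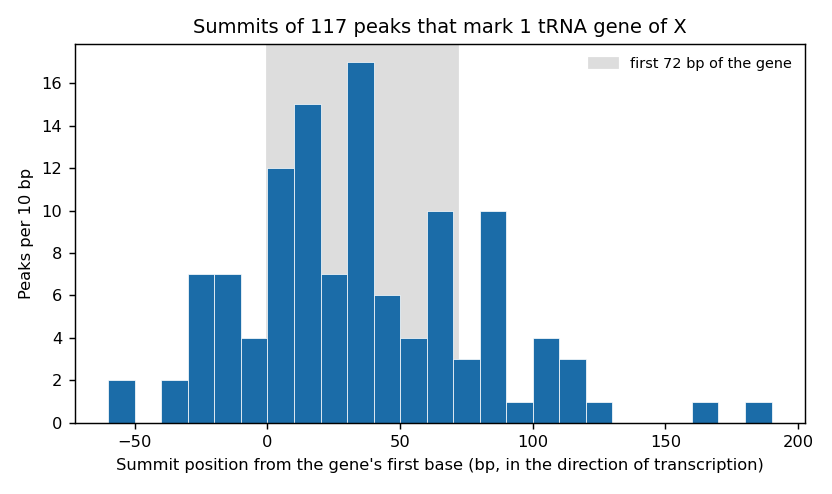
Number of thresholded peaks per 10 bp (vertical axis) by distance of the summit from the gene's first base in the direction of transcription (horizontal axis, bp), for the 117 peaks that mark 1 X tRNA gene. The grey band is the first 72 bp of the gene; 75 summits lie within their gene's body, 22 before it and 20 after it.

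Host genes made little difference. An intron of a protein-coding gene held 95 of the 276 X genes (34.4%), against 56.8% of autosomal tRNA genes. Of those 95, 53 were bound (55.8%), and of the 181 others 104 were (57.5%). The difference was -1.67 percentage points with a 95% interval of -13.9 to 10.4, and the replicates differed in its sign, at -2.75 and 2.36. The 95 genes lay in 67 host genes.

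Orientation within the host gave a wider gap. Of the 45 tRNA genes on the strand opposite to the host, 29 were bound (64.4%), and of the 50 on the same strand, 24 were (48.0%). The difference was 16.4 points (95% interval -3.44 to 34.5), with 13.1 in replicate 1 and 22.4 in replicate 2. The interval of the thresholded value includes 0.

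Nearness to the start of a protein-coding gene was also recorded. Of the 75 tRNA genes with a transcript start less than 1000 bp away, 52 were bound (69.3%), against 94 of 177 from 1000 to under 5000 bp away (53.1%) and 11 of 24 beyond (45.8%). Near against farther gave 17.1 points (95% interval 4.02 to 28.6) in the thresholded list. The replicates gave 8.22 and 14.1 points, and the interval of replicate 1 includes 0 (-4.88 to 21.0).

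The bound share varied along X. Cut into 6 equal parts from left to right, the chromosome had 13 of 24, 22 of 27, 36 of 60, 30 of 47, 38 of 68 and 18 of 50 genes bound. The second part was highest (81.5%) and the last lowest. Setting the last part against the rest, a contrast chosen after the values were seen, gave -25.5 points (95% interval -38.8 to -10.2), with -26.9 in replicate 1 and -20.9 in replicate 2. In the last part 9 of 29 genes with a neighbour were bound and 9 of 21 without, so both kinds were low there.

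The difference by internal promoter letters depended on how box B was defined. The box B core GTTCGA occurred on the gene's strand in 200 of the 276 bodies, and 109 of those were bound (54.5%) against 48 of 76 without (63.2%), a difference of -8.66 points (95% interval -20.8 to 4.45). Replicate 1 alone gave -16.4 points (-28.8 to -3.21) and replicate 2 alone -9.39 (-21.9 to 3.77). The core was found in 72.5% of X bodies, 72.02% of autosomal ones and 1.27% of 72-bp tiles of X. A longer consensus was the core preceded by G and followed by any base and TCC. With it the sign turned, with 75 of 119 bound (63.0%) against 82 of 157 (52.2%). This difference, 10.8 points, had an interval that includes 0 (-0.99 to 22.1). Replicate 1 had 46.2% against 45.9% and replicate 2 had 54.6% against 48.4%. The longer consensus was held by 0.0264% of tiles. Every body held the core with at most 1 mismatch, so that definition gave no split. A box A core, TGGC or TAGC with a G within 8 bases in the first 25 bases, gave 89 of 162 bound (54.9%) against 68 of 114 (59.6%), and 6.09% of tiles held it.

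Other features of the windows were recorded in the same way. A run TTTT lay within 30 bp after the end of 273 of the 276 genes (98.9%), and in 34.8% of 30-bp tiles of X. The Max-family E-box CACGTG, which reads the same on both strands, occurred in 18 windows, of which 10 held a bound gene (55.6%), against 147 of 258 without it (57.0%). In each replicate alone, 6 of the 18 were bound (33.3%), against 46.9% of the others in replicate 1 and 52.3% in replicate 2, so the lists differed on this feature. The E-box windows are 6.52% of X tRNA windows, against 7.44% of autosomal ones and 7.28% of tiles of the same length over X. The related CACATG, searched on both strands, gave 53 of 90 (58.9%) against 104 of 186 (55.9%). It occurred in 32.6% of X tRNA windows, 25.3% of autosomal ones and 19.03% of tiles. The median GC content of the windows was 37.3% for bound and 36.5% for unbound genes. Of the 12 X genes with a tRNA intron, 6 were bound.

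The 25 genes with no entry in any list included 10 single-copy genes and 18 with a neighbour within 1000 bp. Over all 276 X genes, 57 were single-copy (20.7%) and 135 had such a neighbour (48.9%). The leftmost genes without an entry were F49E7.t3 (tRNA-Arg, TCG), Y75D11A.t2 (tRNA-Arg, CCT), ZK154.t1 (tRNA-Asn, GTT), F08F1.t3 (tRNA-Leu, AAG) and R04E5.t4 (tRNA-Gly, TCC). ZK154.t1 and F08F1.t3 had windows of 96.8% and 91.6% unique 36-mers, whereas Y75D11A.t2 and R04E5.t4 had 60.9% and 63.3%. ZK154.t1 is 1 edit from its nearest relative and lies in an intron of deg-1, 455 bp from ZK154.t2, which was bound at 103.8.

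Genes linked to transcription by RNA polymerase III were examined beside the loci. The list of subunits, factors and regulators was rpc-1, rpc-2, rpc-11, rpac-19, rpac-40, brf-1, tbp-1, mafr-1, tftc-1, tftc-3, tftc-5 and snpc-4. Of these 12 genes, 1 had a thresholded summit in a promoter window, namely rpac-19, which encodes a subunit that RNA polymerases I and III share. Over all protein-coding genes the share was 1.06%.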

How the data were processed

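MXL-1 ChIP-seq peak lists of 2 biological replicates were analysed. Per the deposited file descriptions, the authors called 1 list for each replicate, 1 on pooled alignments and 1 thresholded by reproducibility between replicates (557, 14200, 20313 and 21882 peaks in the thresholded, pooled, replicate 1 and replicate 2 lists). The deposited signal of each peak has no stated scale and was used within a list only. Summit positions are the deposited start plus the offset column. The sources used here do not name the aligner or the peak caller, and depth is unknown.

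Genes came from Ensembl release 115 and isotypes and sequence from RefSeq, both on WBcel235. Anticodons were read from the sequence as a 7-base loop closed by a 5-bp stem that fits the named isotype (268 of 276 genes). Copies are genes with identical bodies. Unique sequence is the share of 36-mers found once in the genome, and the read length is unknown. Nearest starts are those of protein-coding transcripts, measured from the tRNA gene's first base. Motif tiles were read on the plus strand, except that CACATG was read on both.

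Shares carry exact Clopper-Pearson intervals and differences Newcombe intervals (95%), which count genes only. No test was made, because both replicates belong to 1 group and genes are not replicates. Members and lists were chosen with earlier results of these data known. Named genes are the 12 strongest, the strongest of each isotype, the 5 weakest bound, the 5 strongest unbound, members of the 3 largest identical groups, 5 genes without an entry and the 3 strongest shared peaks. Other genes (the Ala genes, the Arg ACG and Leu AAG groups, the large clusters and the 2 bound genes without a replicate 1 summit) were named after their values were seen. The calling of loci was tested on simulated peaks. The software was edlib 1.3.9.post1, statsmodels 0.14.6, scipy 1.17.1, numpy 2.4.6 and matplotlib 3.10.9 under Python 3.11.15.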

Additional observations from a re-analysis of the deposited data

How the results depend on the processing

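The bound share of X tRNA genes, 56.9%, depends on the window and list. It was 29.7% with summits inside the gene body only, 37.0% with the stronger part of the thresholded list (278 peaks), 86.2% with all pooled entries, 63.0% with neighbours under 500 bp apart as 1 locus and 49.6% with each peak given to its nearest gene. By the strongest peaks of a single replicate it ran from 46.0% to 51.1%. The excess over the autosomes stayed positive in all 16 alternatives run, from 4.41 points (summits inside the body) and 4.98 (all pooled entries) to 19.8; the intervals of these low values include 0 (-2.65 to 11.5 and -0.97 to 10.7), unlike the main one. The deficit of genes with a neighbour kept its sign in all 14, from -10.7 to -36.3 points, the last with each peak given to its nearest gene, but with neighbours under 500 bp apart as 1 locus its interval includes 0 (-13.1, -26.7 to 0.69). The excess of bodies with 10 or more copies over fewer (13.8 points) kept its sign in 12 of 13 and became -6.25 (-19.3 to 8.09) with families by anticodon. It fell to 9.02 (-2.80 to 20.4) without replicate 2, and its interval also included 0 with windows of 0 or 500 bp, the stronger part of the list and all pooled entries. The box B difference (-8.66 points) kept its sign in 10 of 11 and reached -16.4 (-28.8 to -3.21) without replicate 2. With the longer consensus it became 10.8, with an interval that includes 0 (-0.99 to 22.1). The definition with 1 mismatch could not be run because every gene passed it. The intron difference stayed within its interval in all 11 and changed sign in 3. The causes were not tested. Lists without read totals, 1 group and 2 replicates limit all values to descriptions.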
